A study of Homo sapiens with 9 samples.

Results

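PBX2, PBX3, PBX4, MEIS1, MEIS2, MEIS3, PKNOX1 and PKNOX2 encode homeodomain proteins that act as cofactors of HOX proteins. The 8 genes were chosen by symbol, through the GENCODE 29 names of the Ensembl identifiers from the 58735 genes of the count table. The rule uses names and no measured value, but the set was proposed with earlier results of these data known. All 8 had enough reads to be tested, among 18088 genes tested in all. Poly-A RNA was sequenced from HEK293T, an established line of transformed human embryonic kidney cells. The cells had been transfected for 36 h with 10 nM of a control siRNA, an siRNA against PHF12 or an siRNA against SUDS3, with 3 libraries in each group. Each target was addressed by 1 siRNA, so an effect of lowering the target and any other effect of that siRNA cannot be told apart. PHF12 and SUDS3 are both subunits of SIN3 histone deacetylase complexes.

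PBX, MEIS and PKNOX proteins belong to the TALE class, in which a loop of the homeodomain is extended by a few residues. PBX proteins bind DNA together with HOX proteins and sharpen the choice of site, most clearly with HOX proteins of the anterior and central paralog groups. MEIS and PKNOX proteins (the latter also called PREP) bind PBX away from DNA and hold it in the nucleus, and MEIS proteins also pair with the more posterior HOX proteins.

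The siRNAs lowered their targets. PHF12 stood at 48.8 to 50.5 CPM (counts scaled to library size) in the control libraries and at 24.5 to 28.3 CPM with PHF12 siRNA. SUDS3 stood at 107.5 to 114.0 CPM in the controls and at 21.1 to 22.9 CPM with SUDS3 siRNA. SUDS3 was also lower with PHF12 siRNA, at 80.1 to 81.5 CPM, and PHF12 higher with SUDS3 siRNA, at 59.5 to 62.9 CPM. Library totals ran from 37962926 to 50946148 deposited counts, and 96.2% of the counts above 0 were multiples of 4, so a count here is worth fewer reads than it reads. All 5 HEK293T markers examined (VIM, KRT8, KRT18, NEFM, PAX2) were detected in every library, with a summed level of 1050 to 1059 CPM in controls, 1080 to 1117 CPM with PHF12 siRNA and 979 to 1004 CPM with SUDS3 siRNA. Of 5 markers of other cell types, PTPRC and CD3E were at 0 in every library and PECAM1 and ALB did not exceed 0.370 CPM. The 5 together summed to 11.4 to 12.3 CPM in controls, 16.3 to 18.4 CPM with PHF12 siRNA and 19.9 to 22.7 CPM with SUDS3 siRNA, nearly all of it COL1A1. COL1A1 rose with either siRNA. Within the HEK293T markers KRT8 rose 1.78-fold with PHF12 siRNA and fell to 0.655 of control with SUDS3 siRNA, and VIM rose by 0.16 and fell by 0.32 on the log2 scale. NEFM fell with PHF12 siRNA by 0.22 on the log2 scale and rose with SUDS3 siRNA by 0.40, KRT18 fell with PHF12 siRNA by 0.22, and PAX2 was not called. The part of these marker changes in the results was not tested.

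Of the 8 cofactor genes, 5 rose with PHF12 siRNA and none fell, while with SUDS3 siRNA 2 rose and 3 fell. MEIS3 and PKNOX2 rose with either siRNA. PBX3 and PKNOX1 rose with PHF12 siRNA and fell with SUDS3 siRNA. PBX2 fell with SUDS3 siRNA, PBX4 rose with PHF12 siRNA, and MEIS1 and MEIS2 passed the test in neither comparison. A gene was called at an adjusted p below 0.05 in edgeR's quasi-likelihood test, corrected over all genes tested. With PHF12 siRNA 14.8% of all tested genes were called higher and 17.1% lower. With SUDS3 siRNA 19.6% were called higher and 19.2% lower. Upper-quartile scaling changed the PHF12 siRNA split from 2680 genes higher and 3096 lower to 3381 higher and 2566 lower. The median log2 fold change of the 8 genes was 0.21 with PHF12 siRNA and -0.08 with SUDS3 siRNA, beside -0.00 and -0.02 over all tested genes. The changes were modest: the median size of change over all genes was 0.21 with PHF12 siRNA and 0.24 with SUDS3 siRNA on the log2 scale, and none of the 8 reached the 90th percentile of 0.75 and 0.82. Both comparisons share the 3 control libraries.

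**Figure D1:**
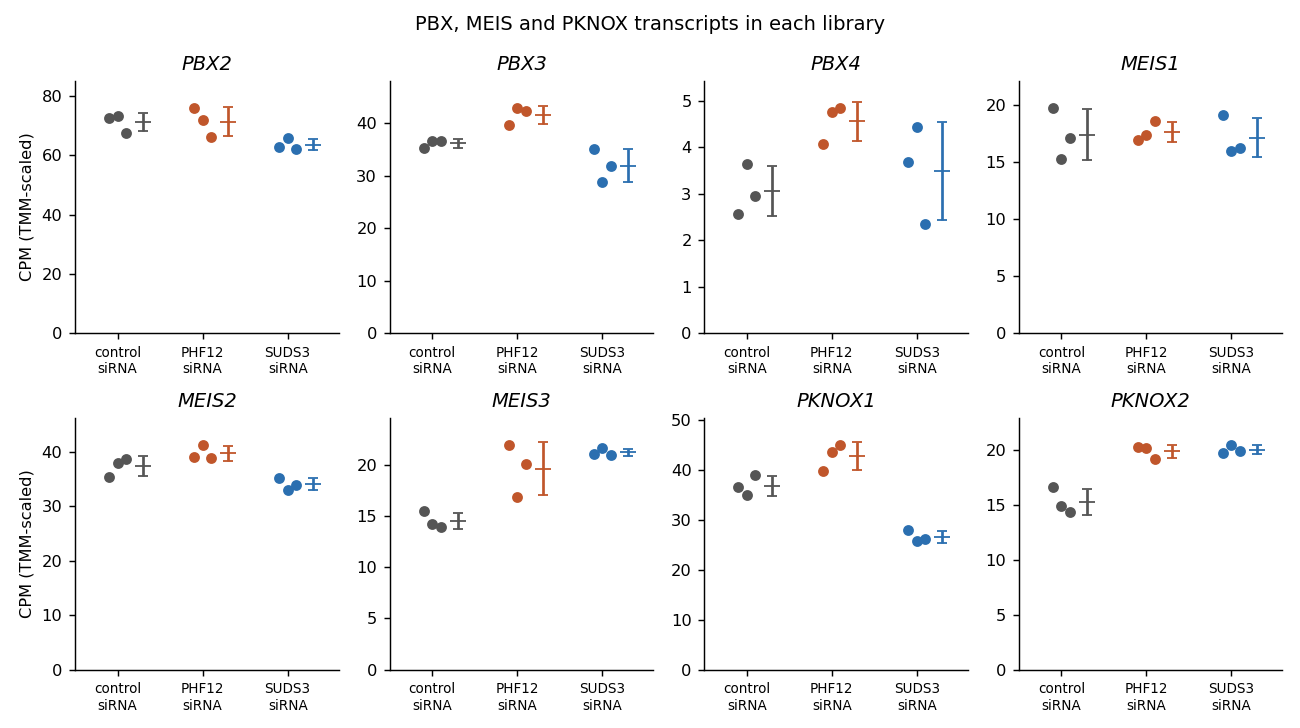
CPM (vertical axes) of the 8 cofactor genes by treatment group (horizontal axes), with 1 point per library and the group mean ± SD as a bar. MEIS3 and PKNOX2 lie above their controls in both siRNA groups, whereas PKNOX1 lies above with PHF12 siRNA and below with SUDS3 siRNA.

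Promoter sequences are shown for the pair that moved in opposite directions under the siRNAs and for MEIS3, which rose with either. They come from RefSeq (GRCh38.p14), run 5′ to 3′ along the gene's strand over 300 bases around its start, and carry these motifs in capitals where present on either strand: the GC box GGGCGG bound by SP and KLF factors, the CCAAT box, and the MEIS or PKNOX core TGACAG. The PBX3 window lies at chr9:125747933-125748232 on the plus strand, the PKNOX1 window at chr21:42974312-42974611 on the plus strand, and the MEIS3 window at chr19:47419478-47419777 on the minus strand.
PBX3: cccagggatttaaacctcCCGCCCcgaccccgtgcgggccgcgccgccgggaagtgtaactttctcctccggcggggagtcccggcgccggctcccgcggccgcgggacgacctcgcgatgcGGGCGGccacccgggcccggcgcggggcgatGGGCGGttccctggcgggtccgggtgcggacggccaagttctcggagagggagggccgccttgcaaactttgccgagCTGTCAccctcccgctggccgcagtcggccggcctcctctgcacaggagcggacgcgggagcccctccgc
PKNOX1: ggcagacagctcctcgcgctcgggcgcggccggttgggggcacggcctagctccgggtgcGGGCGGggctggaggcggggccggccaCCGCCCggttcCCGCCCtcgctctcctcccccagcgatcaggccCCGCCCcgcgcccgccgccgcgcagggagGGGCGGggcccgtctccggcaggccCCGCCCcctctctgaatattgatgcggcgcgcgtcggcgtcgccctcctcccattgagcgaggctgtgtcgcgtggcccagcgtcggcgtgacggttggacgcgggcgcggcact
MEIS3: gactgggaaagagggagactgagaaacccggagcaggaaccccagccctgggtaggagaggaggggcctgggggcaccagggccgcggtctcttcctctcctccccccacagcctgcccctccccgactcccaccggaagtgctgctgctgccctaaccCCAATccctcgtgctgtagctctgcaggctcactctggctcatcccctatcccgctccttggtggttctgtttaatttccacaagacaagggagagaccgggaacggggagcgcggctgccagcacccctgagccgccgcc
The PKNOX1 window holds 6 GC boxes and 78.7% G or C, and the PBX3 window holds 3 GC boxes, 1 TGACAG on the reverse strand and 76% G or C. The MEIS3 window holds 1 CCAAT box and 65.7% G or C, and a second RefSeq MEIS3 window holds 2 GC boxes. The median over all 35116 windows of the same length was 58.7% G or C.

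Across the 7 genes matched in the promoter table (9 windows), the composite sites of TALE proteins were scarce. The PBX-HOX site TGATTGAT and the PBX-MEIS site TGATTGAC were in none of the 9 windows and in 0.484% and 0.575% of all windows. The PBX-HOX variant TGATTTAT was in 1 MEIS2 window and in 0.846% of all. TGACAG was in the PBX3 window alone among the 9 and in 15.8% of all. CCAAT was found for MEIS1, MEIS2 and MEIS3 and in 34.6% of all windows, and GGGCGG in 6 of the 9 and in 45.0% of all. Both strands were searched, and the TGATT sites share their first 5 letters with one another. A match is a run of letters and says nothing of binding.

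The 3 PBX genes differed in their response. PBX2 (ENSG00000204304, GRCh38 chr6:32184741-32190186, minus strand, in the MHC class III region) is a broadly expressed PBX gene. Its CPM in control replicates 1, 2 and 3 was 72.7, 73.2 and 67.6, against 75.9, 72.0 and 66.1 with PHF12 siRNA and 62.9, 65.7 and 62.1 with SUDS3 siRNA. The PHF12 siRNA libraries lay on both sides of the controls, and all 3 SUDS3 siRNA libraries lay below every control. PBX2 fell with SUDS3 siRNA by 0.16 on the log2 scale (SE 0.05, adjusted p = 0.0136), and its log2 fold change with PHF12 siRNA was 0.00 (SE 0.05, adjusted p = 0.964). The fall no longer passed without control replicate 1 (adjusted p = 0.0538), control replicate 2 (0.0769) or SUDS3 siRNA replicate 3 (0.0530), nor with limma on the deposited TPM (0.0740).

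PBX3 (ENSG00000167081, chr9:125747345-125967377, plus strand) encodes a PBX protein best known from neural development and from leukemias with high HOXA expression. Its CPM was 35.3, 36.7 and 36.6 in the controls, 39.7, 42.9 and 42.3 with PHF12 siRNA and 35.1, 28.8 and 32.0 with SUDS3 siRNA. The 3 groups did not overlap, although SUDS3 siRNA replicate 1 lay close to control replicate 1. PBX3 rose with PHF12 siRNA by 0.20 (SE 0.07, adjusted p = 0.0189), a 1.15-fold change, and fell with SUDS3 siRNA by 0.18 on the log2 scale (SE 0.07, adjusted p = 0.0346). The rise no longer passed without control replicate 1 (adjusted p = 0.0703), PHF12 siRNA replicate 2 (0.0846) or PHF12 siRNA replicate 3 (0.0650). The fall no longer passed without control replicate 2 (0.0994), control replicate 3 (0.0871), SUDS3 siRNA replicate 2 (0.336, at a log2 fold change of -0.10) or SUDS3 siRNA replicate 3 (0.0717), nor with DESeq2 (0.0535) or limma on the deposited TPM (0.0654).

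PBX4 (ENSG00000105717, chr19:19561707-19618916, minus strand), a PBX gene known mainly from the testis, was the least expressed of the 8. Its CPM was 2.56, 3.63 and 2.96 in the controls, 4.08, 4.74 and 4.84 with PHF12 siRNA and 3.67, 4.42 and 2.35 with SUDS3 siRNA. The PHF12 siRNA libraries all lay above the controls, while the SUDS3 siRNA libraries spread from below to above them. PBX4 rose with PHF12 siRNA by 0.58 (SE 0.21, adjusted p = 0.0287), and its log2 fold change with SUDS3 siRNA was 0.19 (SE 0.21, adjusted p = 0.519). The lowest PBX4 library held 96 deposited counts, or 24 after division by 4, and the rise no longer passed without control replicate 1 (adjusted p = 0.138), control replicate 3 (0.0727), PHF12 siRNA replicate 2 (0.0853) or PHF12 siRNA replicate 3 (0.0937), nor with limma on the deposited TPM (0.0568).

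The MEIS genes behaved differently from one another. MEIS1 (ENSG00000143995, chr2:66433452-66573869, plus strand), the partner of HOXA9 in leukemia models, had a CPM of 19.7, 15.3 and 17.1 in the controls, 17.0, 17.4 and 18.6 with PHF12 siRNA and 19.2, 16.0 and 16.3 with SUDS3 siRNA. The 3 groups overlapped, with control replicates 1 and 2 the highest and lowest of the 9 libraries. MEIS1 was called in no comparison, with log2 fold changes of 0.02 with PHF12 siRNA (SE 0.10, adjusted p = 0.906) and -0.02 with SUDS3 siRNA (SE 0.10, adjusted p = 0.907).

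MEIS2 (ENSG00000134138, chr15:36889204-37101299, minus strand) encodes a MEIS protein with roles in limb, heart and brain development. Its CPM was 35.4, 38.0 and 38.7 in the controls, 39.1, 41.3 and 38.8 with PHF12 siRNA and 35.1, 33.0 and 33.9 with SUDS3 siRNA. The groups did not overlap, but the highest control lay just below the lowest PHF12 siRNA library and the lowest control just above the highest SUDS3 siRNA library. Neither log2 fold change passed, at 0.09 with PHF12 siRNA (SE 0.06, adjusted p = 0.317) and -0.13 with SUDS3 siRNA (SE 0.06, adjusted p = 0.0933). With upper-quartile scaling the SUDS3 siRNA value passed, at -0.16 (adjusted p = 0.0397), as the fourth member to fall.

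MEIS3 (ENSG00000105419, chr19:47403124-47419523, minus strand), a MEIS gene known for hindbrain patterning in frogs and fish, was the MEIS gene that passed. Its CPM was 15.4, 14.2 and 13.9 in the controls, 22.0, 16.8 and 20.1 with PHF12 siRNA and 21.1, 21.6 and 21.0 with SUDS3 siRNA. Every library of either siRNA lay above every control, and the SUDS3 siRNA libraries were the tightest. MEIS3 rose by 0.43 with PHF12 siRNA (SE 0.09, adjusted p = 0.000321) and by 0.55 with SUDS3 siRNA (SE 0.09, adjusted p = 9.79e-06), or 1.35-fold and 1.46-fold.

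The PKNOX genes also parted. PKNOX1 (ENSG00000160199, chr21:42974510-43033931, plus strand), or PREP1, encodes a broadly expressed PBX partner. Its CPM was 36.7, 35.0 and 39.0 in the controls, 39.8, 43.7 and 45.1 with PHF12 siRNA and 28.1, 25.8 and 26.2 with SUDS3 siRNA. The 3 groups did not overlap, and the SUDS3 siRNA libraries stood well below the rest. PKNOX1 rose by 0.22 with PHF12 siRNA (SE 0.07, adjusted p = 0.0100) and fell with SUDS3 siRNA by 0.47 on the log2 scale (SE 0.07, adjusted p = 7.62e-07), to 0.724 of its control level. The rise no longer passed without control replicate 2 (adjusted p = 0.0754) or PHF12 siRNA replicate 3 (0.0737).

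PKNOX2 (ENSG00000165495, chr11:125164687-125433389, plus strand), or PREP2, encodes a relative of PKNOX1 with more restricted expression. Its CPM was 16.6, 15.0 and 14.4 in the controls, 20.3, 20.2 and 19.3 with PHF12 siRNA and 19.8, 20.5 and 19.9 with SUDS3 siRNA. The 6 siRNA libraries all lay above the controls and mixed with one another. PKNOX2 rose by 0.38 with PHF12 siRNA (SE 0.09, adjusted p = 0.000611) and by 0.39 with SUDS3 siRNA (SE 0.09, adjusted p = 0.00036).

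The siRNA groups were also compared with each other. This difference uses no control mean, but the filter, scaling and spread came from the fit of all 9 libraries, controls included. PBX2, PBX3, MEIS2 and PKNOX1 were lower with SUDS3 siRNA than with PHF12 siRNA, no member was higher, and 4 were not called. Among all tested genes 22.7% were called higher and 21.1% lower in this comparison, and the median log2 difference was -0.20 for the 8 genes and -0.01 over all. Upper-quartile scaling changed the split over all genes from 4113 higher and 3824 lower to 3331 higher and 4749 lower. PKNOX1 differed most, by -0.68 on the log2 scale (SE 0.07, adjusted p = 1.00e-10). PBX3 differed by -0.38 (SE 0.07, adjusted p = 1.24e-05), MEIS2 by -0.22 (SE 0.06, adjusted p = 0.00338) and PBX2 by -0.17 (SE 0.05, adjusted p = 0.00908). The PBX2 difference no longer passed without PHF12 siRNA replicate 1 (-0.12, adjusted p = 0.0957) or with limma on the deposited TPM (-0.14, adjusted p = 0.0547). MEIS3 (0.11, SE 0.09, adjusted p = 0.340), PKNOX2 (0.01, SE 0.08, adjusted p = 0.939), MEIS1 (-0.04, SE 0.10, adjusted p = 0.775) and PBX4 (-0.38, SE 0.20, adjusted p = 0.131) did not pass. PBX4 passed without SUDS3 siRNA replicate 2, at -0.59 (adjusted p = 0.0341).

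**Figure D2:**
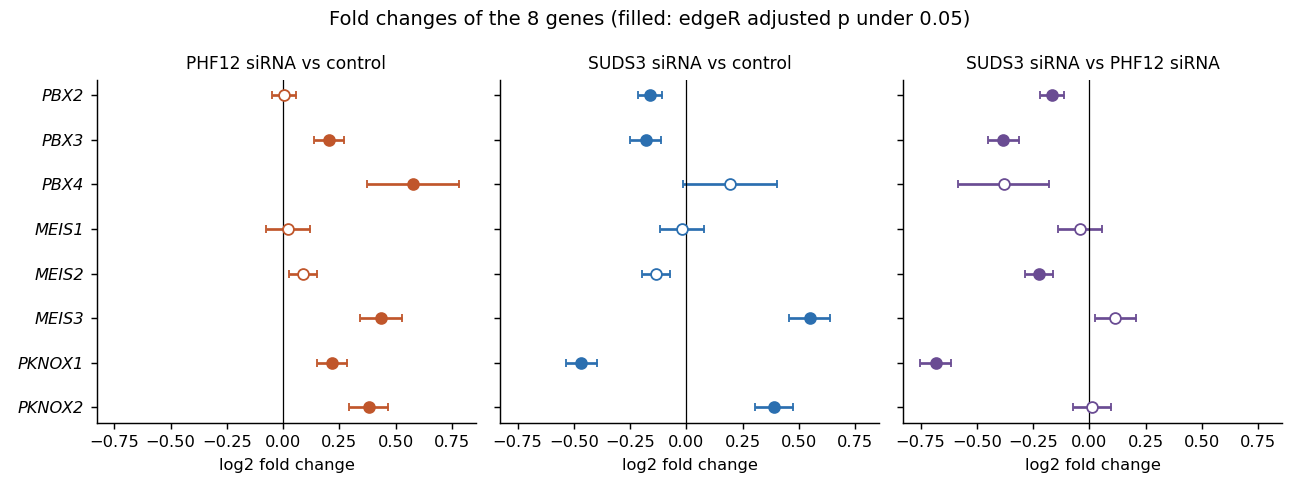
Log2 fold change (horizontal axis) of the 8 genes in the 3 comparisons, with bars of 1 SE on either side and filled points for an adjusted p below 0.05. PKNOX1 lies at 0.22 with PHF12 siRNA and at -0.47 with SUDS3 siRNA against control, while MEIS3 lies at 0.43 and 0.55.

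Levels can be compared between genes only per length, so counts were divided by the length of each gene's annotated exons and scaled to the library sum as TPM. In the controls PBX2 led at 56.6 ± 1.93 TPM (SD, n = 3), followed by PBX3 at 27.7 ± 0.981, PKNOX1 at 16.7 ± 1.05, MEIS2 at 12.0 ± 0.736 and MEIS3 at 9.80 ± 0.407. PKNOX2 followed at 8.10 ± 0.504, MEIS1 at 5.50 ± 0.649 and PBX4 at 4.13 ± 0.761. Only the last pair of neighbours overlapped, MEIS1 at 4.85 to 6.15 TPM and PBX4 at 3.41 to 4.93 TPM. The middle of this order depends on the length chosen: with the longest annotated transcript instead, MEIS2 stood at 19.7 TPM, PKNOX1 at 18.1, MEIS3 at 16.8, MEIS1 at 8.66 and PKNOX2 at 8.60. PBX2, PBX3 and PBX4 kept the first, second and last places.

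Together the 8 genes gave 140.6 ± 1.18 TPM in controls (SD, n = 3), 155.1 ± 1.58 TPM with PHF12 siRNA and 137.2 ± 3.24 TPM with SUDS3 siRNA. The PHF12 siRNA libraries (153.3 to 156.3 TPM) lay above all others, and the SUDS3 siRNA libraries (133.7 to 140.2 TPM) overlapped the controls (139.6 to 141.9 TPM). This overlap depends on the scaling, since these TPM are scaled to the library sum and the CPM by TMM. In TPM but not in CPM, SUDS3 siRNA and control libraries overlapped for PBX3 (22.7 to 27.5 and 26.5 to 28.4). The same held for MEIS2 (10.9 to 11.5 and 11.2 to 12.6), whereas PBX2 and PKNOX1 overlapped on neither scale. The PBX genes supplied 62.9% of the sum in controls, 60.6% with PHF12 siRNA and 59.9% with SUDS3 siRNA. The MEIS share was 19.4%, 20.2% and 23.0%, and the PKNOX share 17.7%, 19.2% and 17.1%. The shares depend on the length chosen. With the longest annotated transcript, MEIS2 and MEIS3 stood at 19.7 and 16.8 TPM in controls instead of 12.0 and 9.80, while PBX2 was nearly unchanged at 56.5. The sums and shares are descriptions and were not tested.

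**Figure D3:**
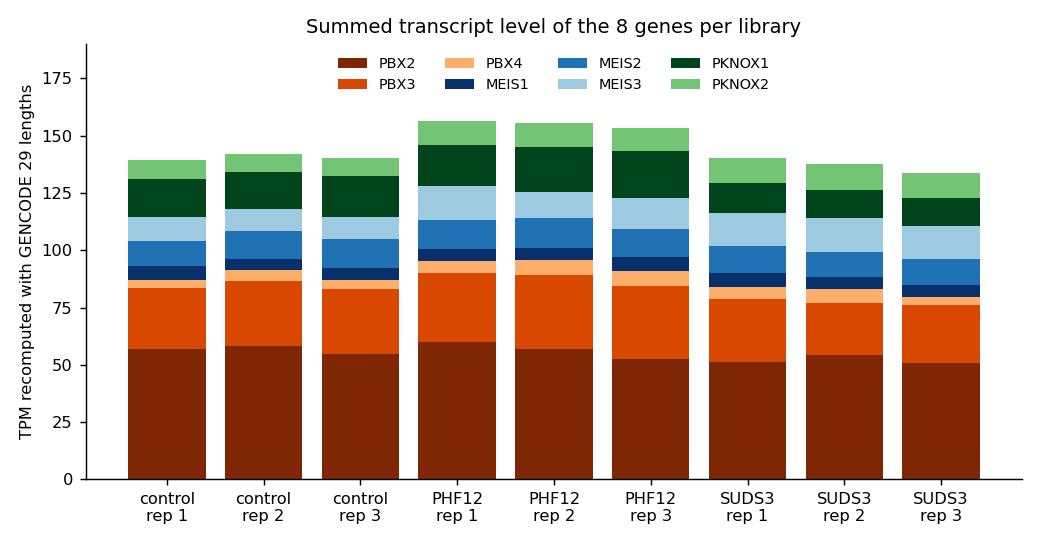
Summed TPM of the 8 genes (vertical axis), computed from counts and exon length, in each of the 9 libraries (horizontal axis), split by gene, with PBX genes in orange, MEIS in blue and PKNOX in green. The 3 PHF12 siRNA libraries reach 153.3 to 156.3 TPM, above the controls at 139.6 to 141.9 TPM.

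The authors' deposited TPM values could not serve for this purpose. The gene length implied by count over TPM was constant across libraries (coefficient of variation at most 0.0704%), but across 12753 genes its Spearman correlation with the annotated exon length was 0.0028, a description over genes that are not independent. Among the 8 genes the implied length was 0.0521 of the annotated length for MEIS2, 0.0825 for PBX3, 4.65 times for PKNOX2 and 6.58 times for MEIS3. For 1 gene the length cancels in a ratio between libraries, but not in log2 of TPM plus 1, where changes at low TPM shrink. With limma on that scale the rises with PHF12 siRNA were 0.24 for MEIS3 and 0.22 for PKNOX2, against 0.43 and 0.38 in edgeR. PBX3, with high deposited TPM, had 0.21 and 0.20.

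**Figure D4:**
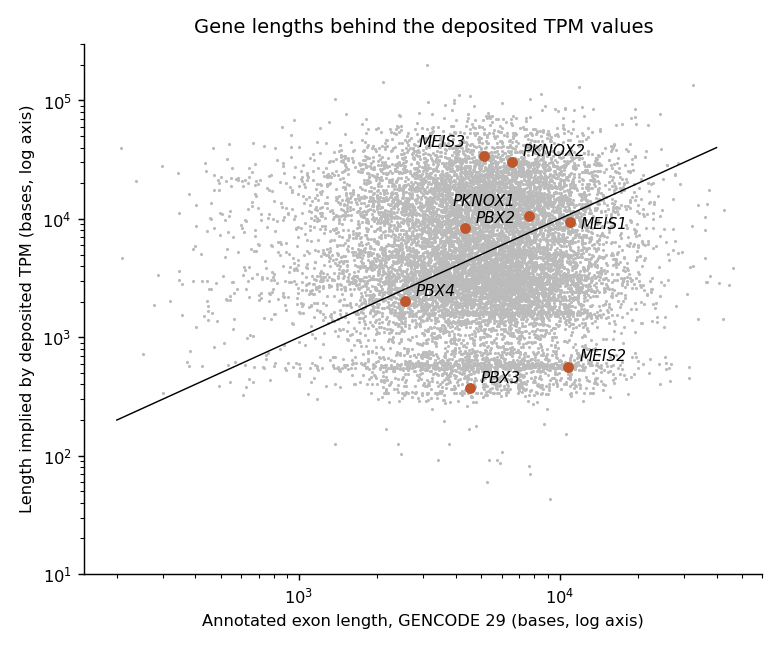
Length implied by the deposited counts and TPM (vertical axis, bases, log scale) against annotated exon length (horizontal axis, bases, log scale) over 12753 genes, with the 8 cofactor genes marked and a line of equality. MEIS2 and PBX3 lie far below the line and MEIS3 and PKNOX2 above it.

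The other TALE genes listed were the TGIF, IRX and MKX genes, 10 in all, of which 7 were tested. With PHF12 siRNA 1 rose and 1 fell, with SUDS3 siRNA 1 rose and 1 fell, and the median log2 fold changes were -0.18 and -0.07. TGIF1, a repressor that acts in TGF-beta signaling, rose with PHF12 siRNA by 0.42 (SE 0.10, adjusted p = 0.00091). TGIF2, its close relative, fell with PHF12 siRNA by 0.18 on the log2 scale (adjusted p = 0.00574) and rose with SUDS3 siRNA by 0.24 (adjusted p = 0.000236). The TGIF2 fall no longer passed without PHF12 siRNA replicate 2 (adjusted p = 0.0742). MKX, a regulator of tendon cells, fell with SUDS3 siRNA by 0.74 on the log2 scale (adjusted p = 1.62e-05).

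The HOX genes, whose products are the partners of these cofactors, were counted by paralog group. Of 22 tested HOX genes in groups 1 to 8, 14 rose and 0 fell with PHF12 siRNA, and 1 rose and 15 fell with SUDS3 siRNA, at medians of 0.40 and -0.58. All 7 genes of groups 9 and 10 rose with PHF12 siRNA and 5 fell with SUDS3 siRNA, at medians of 0.39 and -0.45. Of 9 genes in groups 11 to 13, 3 rose and 2 fell with PHF12 siRNA and 1 rose and 3 fell with SUDS3 siRNA. The genes of smallest p in groups 1 to 8 were HOXA5 (0.53) and HOXA7 (0.89) with PHF12 siRNA and HOXC4 (-0.69) and HOXB2 (-0.99) with SUDS3 siRNA, as log2 fold changes. In groups 9 and 10 they were HOXA9 (0.67) and HOXA10 (0.47) with PHF12 siRNA and HOXA10 (-0.62) and HOXB9 (-0.34) with SUDS3 siRNA. In groups 11 to 13 they were HOXD13 (-0.49) and HOXA11 (0.30) with PHF12 siRNA and HOXC11 (-0.34) and HOXD11 (-0.37) with SUDS3 siRNA. HOXD13 thus fell with PHF12 siRNA (adjusted p = 6.99e-12), as did HOXB13 (-0.46, adjusted p = 0.000167), which rose with SUDS3 siRNA (0.26, adjusted p = 0.0196) and was picked out after its values were seen. Between the siRNAs the genes of smallest p were HOXA5 (-0.95) and HOXA3 (-1.36), HOXA10 (-1.09) and HOXA9 (-0.76), and HOXD13 (0.45) and HOXC11 (-0.73). Of the 8 cofactors, PBX3 and PKNOX1 were called higher with PHF12 siRNA and lower with SUDS3 siRNA, and MEIS3 and PKNOX2 higher with either. The PBX3 fall failed under 6 of 18 alternatives. The share of all tested genes called in opposite directions was not computed, and a link between HOX and cofactor changes was not tested.

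A list of 10 coregulators of PBX and MEIS proteins was tested in full. With PHF12 siRNA 3 rose and 4 fell, and with SUDS3 siRNA 7 rose and 1 fell, at medians of 0.03 and 0.16. Among these calls, the fall of CRTC3 with PHF12 siRNA failed under 10 of 18 alternatives, and the CRTC1 calls with either siRNA each failed under 4. PBXIP1 encodes a protein that binds PBX and hinders HOX-PBX complexes on DNA. Its CPM was 24.7, 23.8 and 23.3 in the controls, 17.1, 14.9 and 15.3 with PHF12 siRNA and 38.8, 44.2 and 44.8 with SUDS3 siRNA. The 3 groups were far apart: PBXIP1 fell with PHF12 siRNA by 0.60 on the log2 scale (SE 0.08, adjusted p = 1.01e-07) and rose with SUDS3 siRNA by 0.83 (SE 0.08, adjusted p = 2.86e-11). The corepressor NCOR1 fell with PHF12 siRNA by 0.55 on the log2 scale (adjusted p = 3.23e-14) and rose with SUDS3 siRNA by 0.13 (adjusted p = 0.00662), a rise that did not pass without SUDS3 siRNA replicate 1 (0.0617). NCOR1 overlaps PIGL on the opposite strand, and whether the counting used strand is not stated, so reads of the pair may not have been told apart. The acetyltransferase CREBBP fell with PHF12 siRNA by 0.46 on the log2 scale (adjusted p = 6.26e-10), and the deacetylase HDAC1 rose by 0.56 (adjusted p = 2.08e-17).

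**Figure D5:**
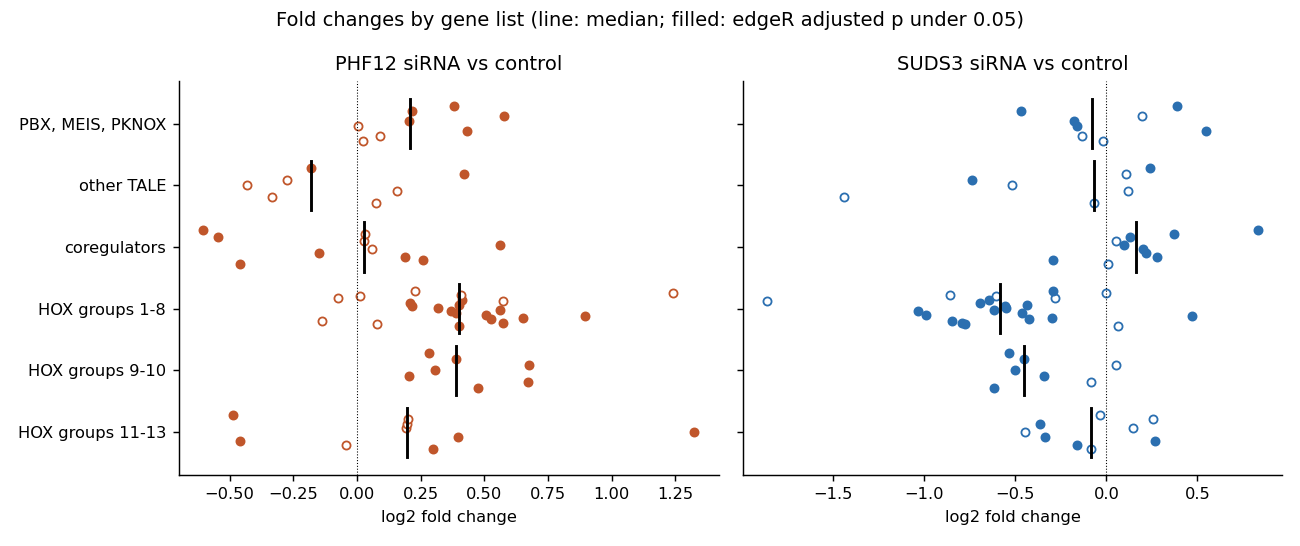
Log2 fold changes of single genes in the cofactor, other TALE, HOX and coregulator lists (vertical axis), against control, with filled points for an adjusted p below 0.05 and a line at each list's median. The HOX genes of groups 9 and 10 all lie above 0 with PHF12 siRNA, at a median of 0.39, and have a median of -0.45 with SUDS3 siRNA.

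Genes whose log2 CPM ran most like a called cofactor over the 9 libraries, among 11729 protein-coding genes, are given by Pearson's r as a description. For PKNOX1 they were ARRDC4 and CDK1 (both 0.99), for PBX3 CHRAC1 and SS18 (both 0.98), and for MEIS3 DAPK3 (0.98) and LRFN3 (0.97). For PKNOX2 they were PI4KB and HGS (both 0.98), for PBX2 SYT3 and METTL7B (both 0.95), and for PBX4 CBX8 (0.95) and FGGY (0.94). The 9 libraries fall into 3 groups and share their scaling, so genes that shift with the siRNAs correlate in this way.

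An siRNA can also lower transcripts through short matches in their 3′ UTRs. The siRNA sequences were not used here, so every 6-base word was compared over 13770 genes with an annotated 3′ UTR, and the leading words were picked from these same fold changes. Words were ranked by the mean log2 fold change of genes with the word minus that of genes without it, the most negative first. Words that went with rises were therefore not listed. With PHF12 siRNA the leading word was AATCAC, at a difference in means of -0.22. It was in 30.7% of the genes, with a median log2 fold change of -0.12 with it and 0.04 without it. The next was ATCACA, in 33.6%, at -0.09 and 0.04. With SUDS3 siRNA it was GTACAT, in 31.3% of the genes, at -0.08 with it and 0.03 without it, followed by TACATT in 40.9%, at -0.06 and 0.04. Genes with these words had longer 3′ UTRs, for example a median of 2894 bases against 940 for AATCAC. PBX3 and PKNOX1 fell with SUDS3 siRNA. For GTACAT and TACATT, PBX3 holds 1 and 2 and PKNOX1 holds 1 and 0. PKNOX1 also holds AATCAC, the leading word with PHF12 siRNA, with which it rose. Sites of these words are shown with 10 bases on either side and the word in capitals.
PBX3 TACATT, 3′ UTR bases 421 to 426: atcaatatttTACATTaatggtttca
PBX3 GTACAT, 3′ UTR bases 1142 to 1147: aaaatgtaatGTACATtgtaatcttt
PKNOX1 GTACAT, 3′ UTR bases 972 to 977: agctctcaccGTACATactccagtct
PKNOX1 AATCAC, 3′ UTR bases 2325 to 2330: ccccactagaAATCACattcactaag
The second PBX3 site also spells TACATT 1 base further on. For AATCAC and ATCACA, PKNOX1 holds 2 and 1 and PKNOX2 holds 0 and 2, and both rose with PHF12 siRNA. MEIS1 holds 3 and 1 and was not called. The others hold neither word: PBX3, PBX4 and MEIS3 rose, and PBX2 and MEIS2 were not called. PBX2, PBX4, MEIS3 and PKNOX2 hold neither GTACAT nor TACATT. With SUDS3 siRNA PBX2 fell, MEIS3 and PKNOX2 rose and PBX4 was not called. MEIS1 holds 2 GTACAT and 4 TACATT words and MEIS2 holds 2 and 3, and neither was called with SUDS3 siRNA. Outside the 8 genes a few others were searched, picked by hand and not as a full list. CRTC3, which fell with PHF12 siRNA, and HDAC1, CRTC1 and CRTC2, which rose, were not among them. Of the genes searched that fell with PHF12 siRNA, PBXIP1, NCOR1 and TGIF2 each hold 1 AATCAC word, and CREBBP and SUDS3 each hold 2. Over all genes compared, 30.7% hold AATCAC. PHF12 itself holds no AATCAC and 1 ATCACA, and TGIF2 and SUDS3 each hold 1 ATCACA. TGIF1 holds 1 AATCAC word and rose with PHF12 siRNA. MKX, which fell with SUDS3 siRNA, holds 1 GTACAT and 3 TACATT words, and NCOR1, which rose with it, holds 1 of each. TGIF1 holds 2 of each and CREBBP 1 of each, and neither was called with SUDS3 siRNA. PHF12 holds 1 GTACAT and 0 TACATT words and rose. PBXIP1 and TGIF2 hold neither word and rose. SUDS3, the target itself, holds 1 of each. The part of these words in the results was not tested.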

How the data were processed

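The authors deposited gene-level counts and TPM for 9 libraries. Per the submitters' processing notes, the tools were Trimmomatic 0.36, HISAT2 2.1.0 and HTSeq, with GRCh38. Deposited counts were used unchanged, although most are multiples of 4. The deposited TPM were used only in an alternative test (limma on log2 of TPM plus 1). Genes were filtered with filterByExpr (minimum count 10), scaled with TMM and tested with edgeR 4.0.16 (R 4.3.3) in a quasi-likelihood fit of all 9 libraries, Benjamini-Hochberg adjusted over 18088 genes in each comparison. On simulated data with changed genes in the PHF12 or the SUDS3 siRNA group, the procedure recovered 20 and 19 of 50 genes changed 1.25-fold. At 1.5-fold it recovered 31 and 33 of 50. Of 131 and 130 calls, 3 in each were false. At 3-fold it recovered 39 and 40 of 50. The changed genes were drawn from low to high control levels, and recovery was not split by level. A gene not called may therefore still differ, but these rates do not apply to each of the 8 genes. For them the SE beside each fold change gives the precision. DESeq2 1.42.0, limma 3.58.1, other scalings and filters, and leaving out each library were alternatives. The members and lists were chosen with earlier results of these data known. Named genes were the targets, members, TALE and coregulator lists, the 2 HOX genes of smallest p in each set of paralog groups and comparison and the nearest patterns. Nothing in the labels tells whether the replicates came from independent cultures, so p-values measure only the spread between these libraries. Same-numbered libraries deviated together at correlations of -0.016 to 0.030, so the numbers were not treated as pairs. Genes overlapping the members had at most 8 counts in a library.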

Additional observations from a re-analysis of the deposited data

How the results depend on the processing

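Each of the 24 fold changes of the 8 genes was recomputed under 18 alternatives. Of these 432 values, 394 kept their direction and their side of the threshold, 22 no longer passed, 2 newly passed and 14 changed sign, none of them called. MEIS3 and PKNOX2 (both siRNAs), the PKNOX1 fall with SUDS3 siRNA, and the PBX3, MEIS2 and PKNOX1 differences between siRNAs passed throughout. Leaving out 1 library, the members that rose with PHF12 siRNA numbered 2 to 5 (2 without PHF12 siRNA replicate 3, 3 without control replicate 1 or PHF12 siRNA replicate 2), those that fell with SUDS3 siRNA 1 to 3 (1 without control replicate 2 or SUDS3 siRNA replicate 3), and those lower with SUDS3 than with PHF12 siRNA 3 to 5. With limma on TPM, 4 members rose with PHF12 siRNA, 1 fell with SUDS3 siRNA and 3 were lower between siRNAs. With upper-quartile scaling 4 fell with SUDS3 siRNA, MEIS2 being added. A replicate block left the counts at 5 risen with PHF12 siRNA, 2 risen and 3 fallen with SUDS3 siRNA and 4 lower between siRNAs, and changed no member's call. Sign changes among uncalled values were small. PKNOX2 between siRNAs turned to -0.0563 with upper-quartile scaling, and MEIS1 with SUDS3 siRNA to 0.00120 with limma on TPM. Over the fits without 1 library, MEIS1 ranged from -0.0638 to 0.125 with PHF12 siRNA, -0.110 to 0.0837 with SUDS3 siRNA and -0.135 to 0.00945 between siRNAs. PBX2 with PHF12 siRNA ranged from -0.0423 to 0.0561, PBX4 with SUDS3 siRNA from -0.00709 to 0.406 and PKNOX2 between siRNAs from -0.0135 to 0.0235. The cause of these changes was not tested. The low counts of PBX4 limit its precision.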
